A study of Saccharomyces cerevisiae with 12 samples.

Results

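The genes described here are 41 Saccharomyces cerevisiae genes of cytosolic translation: 15 initiation factors, 6 elongation factors, 2 termination factors and 18 aminoacyl-tRNA synthetases. They were taken by gene symbol from a fixed list of names, with no threshold on their signals. The list was set with earlier results of these data known. The 12 Affymetrix arrays measured 5449 yeast genes in all. Each of the 41 had exactly 1 probe set, and on every array each lay above the background level of 5.49 on the log2 scale (lowest value 6.30). That level is the 95th percentile of the mean signals of 1746 probe sets whose listed genes were not in the yeast gene table. All 41 are accounted for below, and no filter on low values removed any of them.

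The arrays came from 4 strains with 3 biological replicates each. The strains were hac1∆(hsf1), hac1∆, WT(hsf1) and WT, where hac1∆ marks deletion of HAC1, whose product turns on genes of the unfolded protein response. The sources used here do not give what "(hsf1)" adds, whether both strains that carry it carry the same change, or the parent strain and mating type, so the word serves below only as part of a strain name. All 12 cultures were grown in early exponential phase at 30 °C in synthetic medium without uracil and then received 2.5 mM dithiothreitol (DTT) for 2 h. DTT is a reducing agent that stops disulfide bonds forming in the endoplasmic reticulum. Every group therefore shares the DTT treatment. The deposited values are log2 signals, and a fold change below is a difference of mean log2 signals between strains, with its standard error (SE) from limma. A gene is called higher or lower at an adjusted p under 0.05 over all 5449 genes.

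Cytosolic translation begins when initiation factors bring the methionyl initiator tRNA and the small ribosomal subunit to the capped end of an mRNA. Elongation factors then deliver aminoacyl-tRNAs and move the ribosome along, and release factors end the chain at a stop codon. Aminoacyl-tRNA synthetases supply the substrate by joining each amino acid to its own tRNA. In budding yeast the genes of this machinery are known to be transcribed at high rates in growing cells and to be lowered together with ribosomal protein genes in many stresses. Fungi also need an elongation factor that animals lack, eEF3, an ATPase that helps release the used tRNA from the ribosome's exit site. YEF3 encodes the usual eEF3, and its paralog HEF3 (synonym ZRG7) is known as a gene that zinc limitation induces through the activator Zap1.

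The labels were checked on the strains' own genes first. HAC1 had a log2 signal of 5.26 ± 0.05 (SD, n = 3) in hac1∆(hsf1) and 5.24 ± 0.0042 in hac1∆, below background on all 6 arrays, against 10.80 ± 0.08 in WT(hsf1) and 10.58 ± 0.22 in WT. HSF1, the gene for the heat shock transcription factor, averaged 10.67 ± 0.13 in hac1∆(hsf1), 7.83 ± 0.06 in hac1∆ and 8.52 ± 0.11 in WT(hsf1), and on the WT arrays it read 8.08, 9.61 and 8.11. URA3 ranged over strain means of 9.60 in hac1∆(hsf1), 12.13 in hac1∆, 10.91 in WT(hsf1) and 11.79 in WT. WT replicate 2, the array with the high HSF1 signal, stood apart from the other WT arrays. Over all genes it correlated with the hac1∆(hsf1) arrays at r = 0.973 to 0.978, where WT replicates 1 and 3 reached 0.939 to 0.951. Replicates within a strain correlated at 0.988 to 0.996 in WT and at 0.992 to 0.999 in the other strains. In 32 of the 41 genes WT replicate 2 lay on the hac1∆(hsf1) side of the other WT arrays, a share not counted over all genes. The distance had a median of 0.08 in absolute log2 units, against 0.10 over all genes. It was widest in NIP1 (−0.33), KRS1 (−0.26) and GLN4 (−0.25). The counts of members that rest on WT are also given without this array, with the calls that change.

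The map of the 41 genes shows a shared order of the strains. In 37 of the 41 genes the mean signal was highest in WT(hsf1), and in 30 it was lowest in hac1∆(hsf1). In 29 genes the full order from high to low was WT(hsf1), hac1∆, WT, hac1∆(hsf1). The shares of all genes with the same highest strain, lowest strain or full order were not counted. How far the members differ from the whole array in these respects is therefore not known. Within strains the arrays were close, with a median SD over the 41 genes of 0.10 in hac1∆(hsf1), 0.03 in hac1∆, 0.08 in WT(hsf1) and 0.09 in WT. HEF3 ran against the common order more widely than any of the other 40 genes, and SUI1, SUI3, TIF4632, CAM1 and DPS1 departed from it in smaller ways described below. In the remaining 6 genes, TIF5, TIF4631, FUN12, SUP35, ALA1 and GUS1, the hac1∆(hsf1) mean lay above the WT mean and the rest of the order was kept. That difference ran from 0.02 (SUP35) to 0.21 (FUN12) and was called in FUN12 alone (limma).

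**Figure D1:**
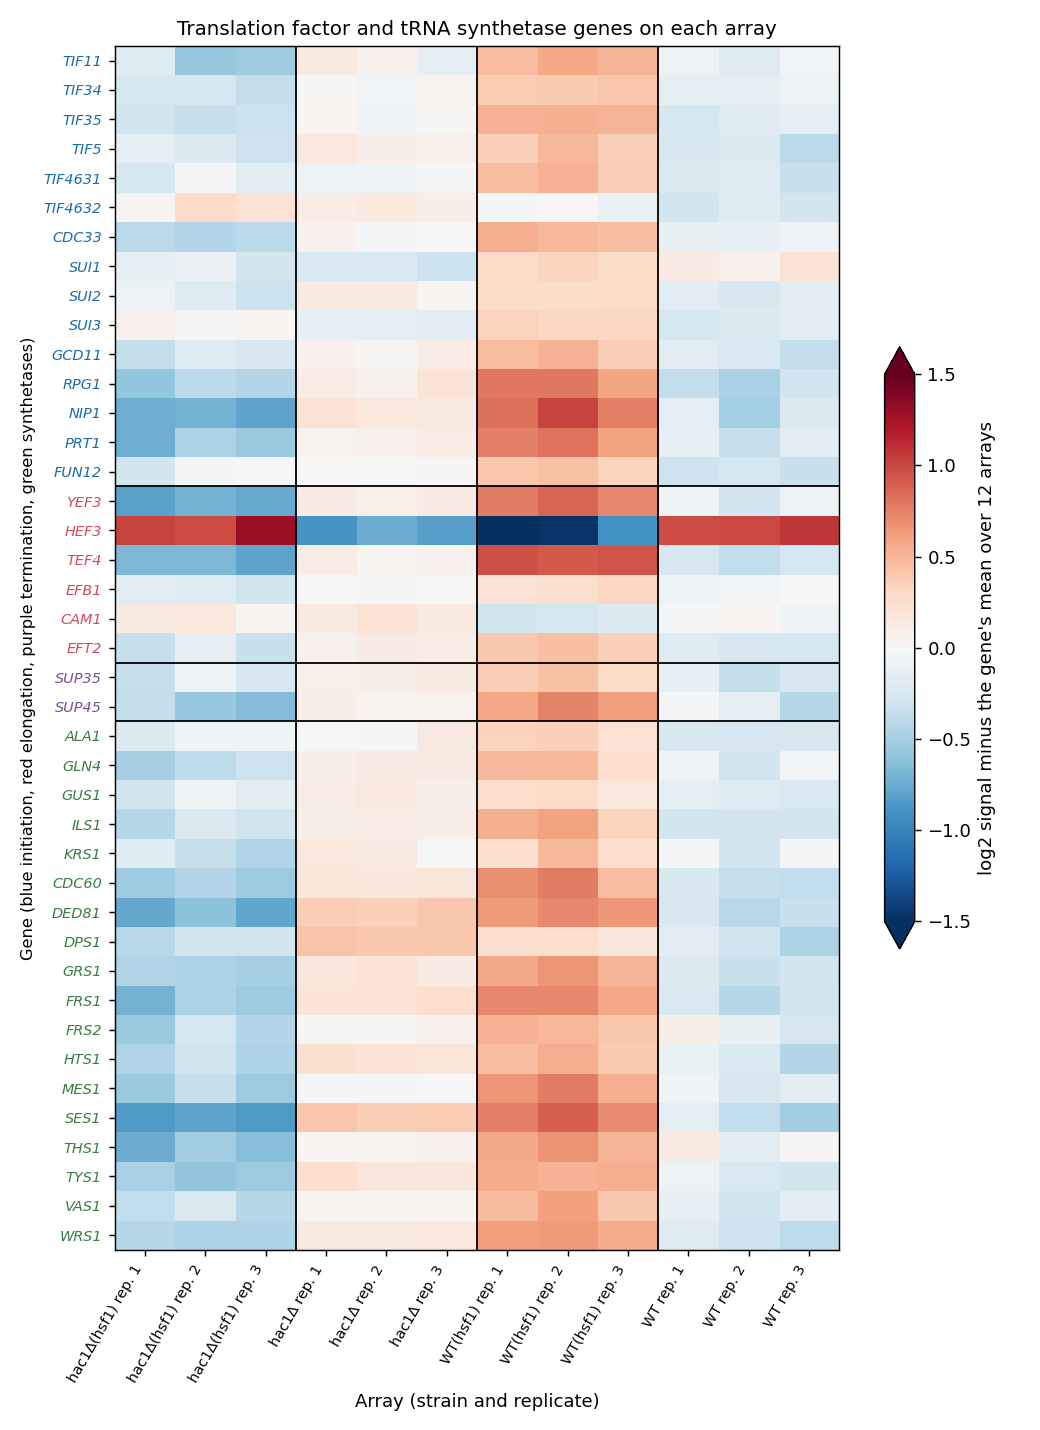
Each row is a gene and each column an array, grouped by strain, and the colour gives the log2 signal minus that gene's mean over the 12 arrays (values beyond 1.5 share the end colour). WT(hsf1) has the highest mean in 37 of the 41 rows, and HEF3 shows the opposite colours, high in hac1∆(hsf1) and WT and low in hac1∆ and WT(hsf1).

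The 2 strains named (hsf1) differed from their partners, hac1∆ and WT, in opposite directions. Whether they carry the same change is not given, so a dependence on HAC1 cannot be told apart from unlike changes in the 2 strains. In hac1∆(hsf1) against hac1∆, 34 of the 41 genes fell and 2 rose (limma), with a median log2 fold change of −0.43. Among all 5449 genes 30.7% fell and 26.5% rose in that comparison, and the median was −0.01. In WT(hsf1) against WT, 39 rose and 2 fell, with a median of 0.69, whereas 32.3% of all genes rose and 33.8% fell, with a median of −0.01. These 2 comparisons share no arrays. The same 34 genes that fell in hac1∆(hsf1) rose in WT(hsf1), which is 82.9% of the list, and 18.5% of all genes did so. HEF3 did the reverse, as did 15.7% of all genes. SUI3 was the only member called higher in both.

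**Figure D2:**
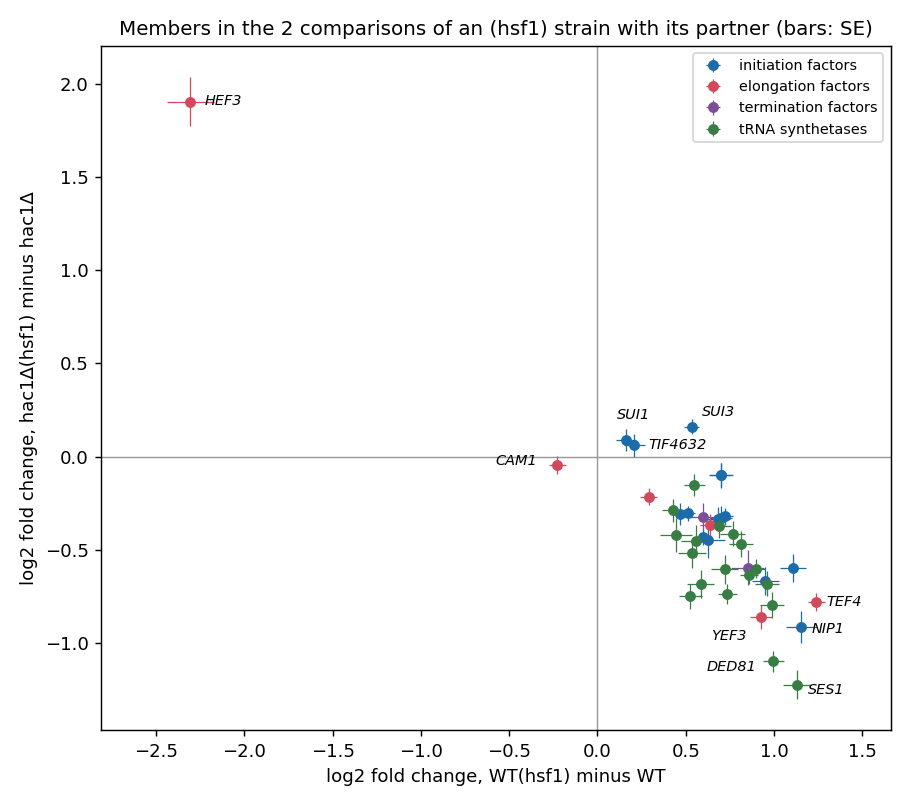
Each point is a gene, with its log2 fold change in WT(hsf1) minus WT on the horizontal axis and in hac1∆(hsf1) minus hac1∆ on the vertical axis, and bars of 1 SE in both directions. Most points lie in the lower right quadrant, up in WT(hsf1) and down in hac1∆(hsf1), while HEF3 lies alone in the upper left at −2.30 and 1.90.

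The difference between the 2 changes, hac1∆(hsf1) minus hac1∆ less WT(hsf1) minus WT, was tested as an interaction in the same fit. It was called negative in 37 of the 41 genes and positive in 2, HEF3 and CAM1, and its median was −1.06. Over all genes it was negative in 34.0% and positive in 35.7%, with a median of 0.01. In 27 members the interaction was negative and at least 2-fold, a size reached by 8.63% of all genes. It was not called in SUI1 (−0.07 ± 0.08) and TIF4632 (−0.15 ± 0.09). The call for CAM1 (0.18 ± 0.07) ended without WT replicate 2, at 0.15, and also without replicate 1 or 2 of hac1∆(hsf1), 1 or 3 of hac1∆, or 1 or 2 of WT(hsf1), at 0.16 to 0.17, which left 1 positive member. The call for TIF4632 appeared without hac1∆(hsf1) replicate 2, at −0.20.

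Strains without HAC1 were also set against strains with it. Because the (hsf1) changes may differ, hac1∆(hsf1) against WT(hsf1) cannot be read as loss of HAC1 alone. The HSF1 and URA3 signals given above also differed between these strains. In hac1∆ against WT, 32 of the 41 genes rose and 2 fell (limma), by a median of 0.30. Of all genes 28.4% rose and 22.3% fell, with a median of 0.03. Set against WT(hsf1), hac1∆(hsf1) had 38 lower and 3 higher, by a median of −0.83, where 35.8% of all genes fell and 41.7% rose, with a median of 0.04. A fall of at least 2-fold was seen in 15 members and in 7.62% of all genes. In hac1∆(hsf1) against WT 22 fell and 4 rose, by a median of −0.18. Here 28.1% of all genes fell and 29.0% rose, with a median of 0.01, and 15 members were not called. The 4 that rose were TIF4632, SUI3, FUN12 and CAM1. Of these, FUN12 lost its call without hac1∆(hsf1) replicate 2 or 3 or WT replicate 3, at 0.15 to 0.19. CAM1 lost it without hac1∆(hsf1) replicate 1 or 2 or WT replicate 1 or 3, at 0.11 to 0.13. Without WT replicate 2 the counts of genes higher and lower were 29 and 2 in hac1∆ against WT, 38 and 2 in WT(hsf1) against WT, and 4 and 23 in hac1∆(hsf1) against WT. Leaving that array out ended the calls in hac1∆ against WT for TIF34 (0.12), CDC33 (0.10) and GLN4 (0.17), the call in WT(hsf1) against WT for SUI1 (0.12), and the call in hac1∆(hsf1) against WT for TIF35 (−0.12). It brought calls in hac1∆(hsf1) against WT for KRS1 (−0.30) and VAS1 (−0.19). By class, 10 initiation factors and 13 synthetases were then higher in hac1∆ against WT, and 6 initiation factors and 13 synthetases were lower in hac1∆(hsf1) against WT.

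**Figure D3:**
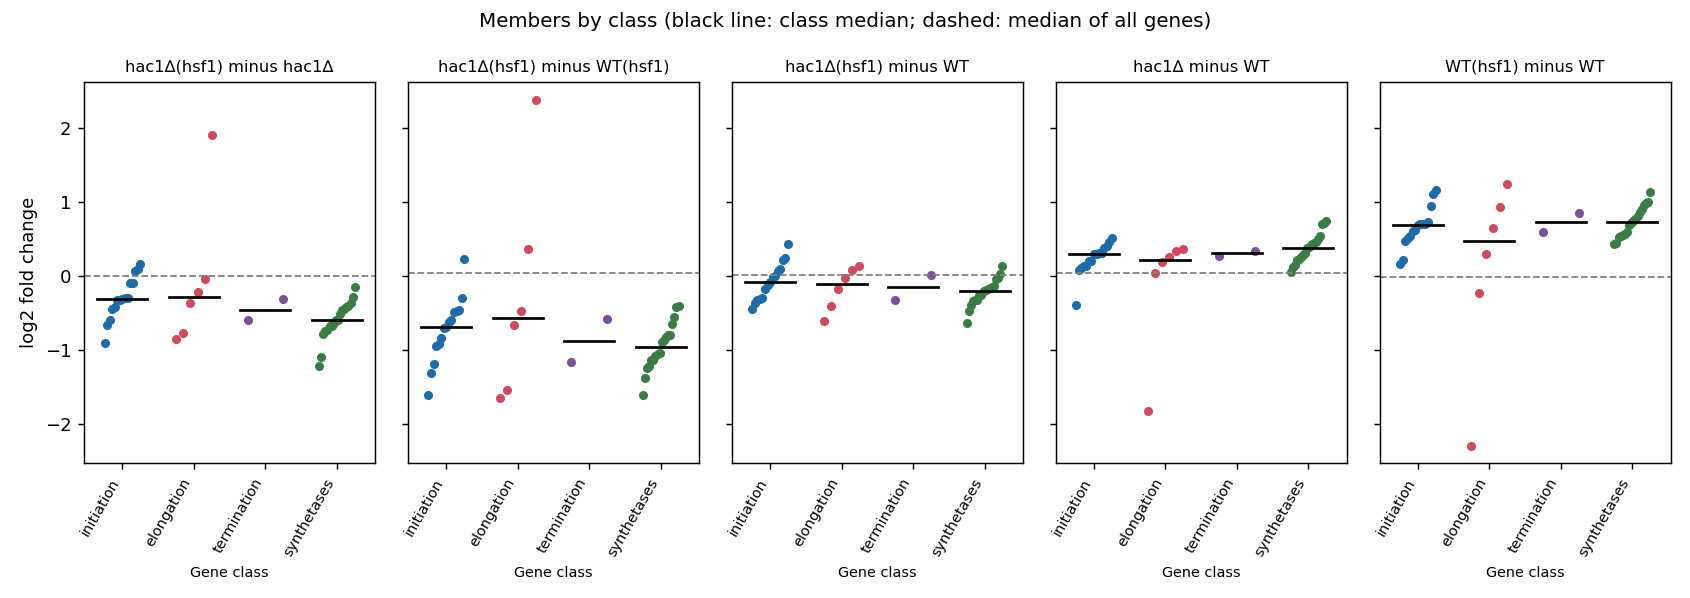
Each dot is a gene, placed by its log2 fold change in 1 of 5 comparisons, with the 41 genes split into 4 classes, the class median as a black line and the median of all 5449 genes as a dashed line. All 18 synthetases lie below 0 in hac1∆(hsf1) minus hac1∆ and above 0 in WT(hsf1) minus WT, while HEF3 is the far dot among elongation factors in 4 of the comparisons.

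Initiation factors followed the common pattern with 5 exceptions, TIF4631, TIF4632, SUI1, SUI3 and FUN12. Of the 15, 10 fell and 1 rose in hac1∆(hsf1) against hac1∆ (median −0.32), and all 15 rose in WT(hsf1) against WT (median 0.69). The widest changes were in eIF3, the complex that holds the small subunit ready for the mRNA. NIP1 (YMR309C), its c subunit, read 7.20, 7.21 and 7.13 in hac1∆(hsf1) and 8.14, 8.08 and 8.05 in hac1∆. On the other arrays it read 8.75, 8.94 and 8.68 in WT(hsf1) and 7.78, 7.41 and 7.71 in WT. No arrays of different strains overlapped, and the order was that of most members. NIP1 thus changed by −0.91 ± 0.09 in hac1∆(hsf1) against hac1∆ (limma adjusted p = 2.82e-06) and by 1.15 ± 0.09 in WT(hsf1) against WT (adjusted p = 1.12e-07), a 2.23-fold rise. Its interaction was −2.07 ± 0.12.

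The other eIF3 genes moved the same way by smaller amounts. RPG1, the a subunit, fell by 0.60 in hac1∆(hsf1) against hac1∆ and rose by 1.11 ± 0.07 in WT(hsf1) against WT. PRT1, the b subunit, fell by 0.67 and rose by 0.95 ± 0.08 in the same comparisons. The small subunits TIF34 and TIF35, which encode the i and g subunits, fell by 0.30 and 0.32 and rose by 0.51 and 0.72. The 3 large subunits thus had interactions of −2.07 to −1.61, and the small ones of −0.82 (TIF34) and −1.04 (TIF35).

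The 3 subunits of eIF2, the GTPase that carries the initiator tRNA, did not move alike. SUI2, the alpha subunit, changed by −0.31 ± 0.06 and GCD11, the gamma subunit, by −0.33 ± 0.06 in hac1∆(hsf1) against hac1∆. SUI3, the beta subunit, read 9.44, 9.36 and 9.40 in hac1∆(hsf1), above its 9.25, 9.25 and 9.22 in hac1∆, and rose by 0.16 ± 0.04 (limma adjusted p = 0.00508). In WT(hsf1) against WT all of them rose, SUI2 by 0.47, SUI3 by 0.53 and GCD11 by 0.70. The interaction of SUI3 was −0.37 ± 0.06 (adjusted p = 8.46e-05), against −0.77 for SUI2 and −1.02 for GCD11, and the difference between these subunits was not tested.

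Among the cap-binding factors, the mRNA for eIF4E followed the common order, and those for its eIF4G partners did so only in part. CDC33, the cap-binding protein eIF4E, read 9.40, 9.37 and 9.39 in hac1∆(hsf1), 9.87, 9.77 and 9.80 in hac1∆, 10.35, 10.31 and 10.26 in WT(hsf1), and 9.69, 9.68 and 9.75 in WT. It was lowest on every hac1∆(hsf1) array and highest on every WT(hsf1) array, with changes of −0.43 ± 0.04 against hac1∆ and 0.60 ± 0.04 against WT. Its change in hac1∆ against WT was 0.11 ± 0.04 (limma adjusted p = 0.0499). That call ended on leaving out any of 10 arrays, WT replicate 3 and hac1∆(hsf1) replicate 2 being the exceptions, at 0.08 to 0.13. The 2 eIF4G scaffold genes are paralogs. TIF4631 rose by 0.70 ± 0.06 in WT(hsf1) against WT and was not called in hac1∆(hsf1) against hac1∆ (−0.10 ± 0.06, adjusted p = 0.214), and that fall was called without hac1∆(hsf1) replicate 2, at −0.16. TIF4632 read 7.60, 7.85 and 7.77 in hac1∆(hsf1), 7.67, 7.71 and 7.67 in hac1∆, 7.53, 7.56 and 7.46 in WT(hsf1), and 7.27, 7.38 and 7.27 in WT. Its WT arrays were the lowest, and the hac1∆(hsf1) and hac1∆ arrays overlapped. It rose in each of the 3 strains against WT, by 0.43 ± 0.06 in hac1∆(hsf1), 0.37 ± 0.06 in hac1∆ and 0.21 ± 0.06 in WT(hsf1).

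SUI1 was the initiation factor that fell in hac1∆. It encodes eIF1, which guards the choice of the start codon. Its signal was 10.33, 10.39 and 10.20 in hac1∆(hsf1), 10.24, 10.25 and 10.15 in hac1∆, 10.76, 10.81 and 10.75 in WT(hsf1), and 10.60, 10.54 and 10.69 in WT. All 6 hac1∆ arrays lay below all 6 arrays with HAC1. SUI1 fell by 0.40 in hac1∆ against WT (SE 0.06, limma adjusted p = 0.000137) and by 0.47 in hac1∆(hsf1) against WT(hsf1) (SE 0.06, adjusted p = 7.75e-06). The comparisons of (hsf1) strains with their partners gave 0.09 ± 0.06 without HAC1, not called, and 0.16 ± 0.06 with it. The rise in WT(hsf1) lost its call without replicate 1 or 2 of WT(hsf1) or of WT, at 0.12 to 0.17. The rest of the initiation factors were TIF11 (eIF1A, which works beside eIF1), TIF5 (eIF5, the activator of eIF2's GTPase) and FUN12 (eIF5B, which joins the ribosomal subunits). TIF11 rose by 0.62, TIF5 by 0.69 and FUN12 by 0.70 in WT(hsf1) against WT. TIF11 changed by −0.45 ± 0.10 and TIF5 by −0.33 ± 0.06 in hac1∆(hsf1) against hac1∆, while FUN12 was not called at −0.10 ± 0.07 (adjusted p = 0.227). The counts in hac1∆ against WT were 12 initiation factors higher and 1 lower, and in hac1∆(hsf1) against WT(hsf1) 14 fell and TIF4632 rose by 0.22 ± 0.06.

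The elongation factors held both the largest changes of the 41 genes and the sharpest contrast, that between the eEF3 paralogs. YEF3 (YLR249W) read 9.71, 9.80 and 9.76 in hac1∆(hsf1), 10.63, 10.58 and 10.64 in hac1∆, 11.27, 11.38 and 11.23 in WT(hsf1), and 10.46, 10.22 and 10.43 in WT. The strains did not overlap, and the order was that of most members. HEF3 (YNL014W) read 9.49, 9.45 and 9.76 in hac1∆(hsf1), 7.59, 7.74 and 7.67 in hac1∆, 6.98, 7.01 and 7.57 in WT(hsf1), and 9.45, 9.47 and 9.55 in WT. It was high in hac1∆(hsf1) and WT, whose arrays overlapped, and low in hac1∆ and WT(hsf1), whose arrays did not.

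**Figure D4:**
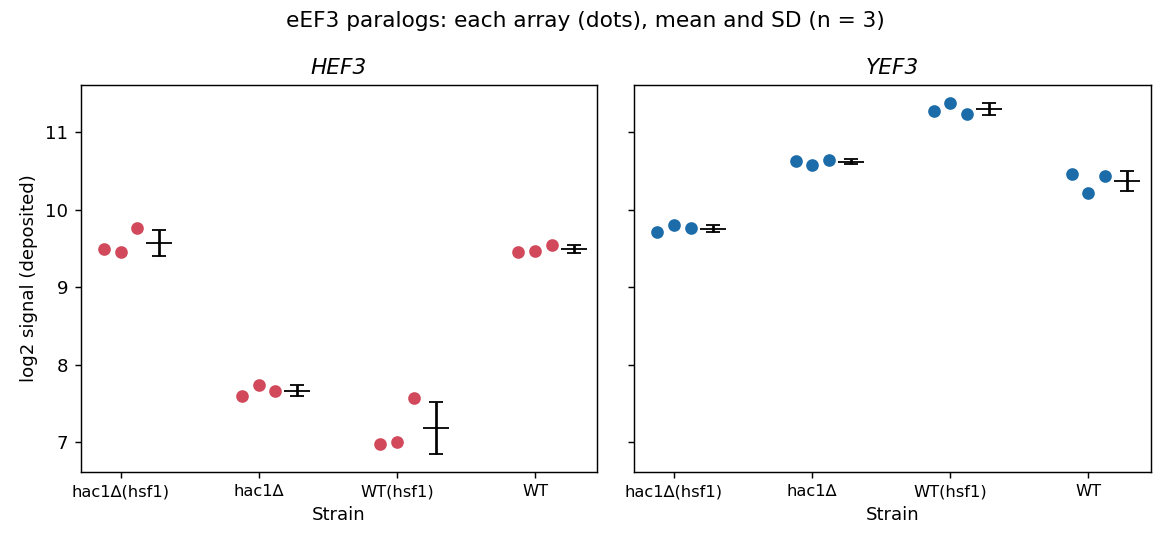
The dots are the log2 signals of HEF3 (left) and YEF3 (right) on each of the 3 arrays of a strain, with the mean and SD beside them. HEF3 is near 9.5 in hac1∆(hsf1) and WT and near or below 7.7 in hac1∆ and WT(hsf1), while YEF3 is highest in WT(hsf1) at 11.30 ± 0.08 and lowest in hac1∆(hsf1) at 9.76 ± 0.05.

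HEF3 rose 3.74-fold in hac1∆(hsf1) against hac1∆ (1.90 ± 0.13, limma adjusted p = 2.38e-07) and fell 4.94-fold in WT(hsf1) against WT (−2.30 ± 0.13, adjusted p = 9.07e-09). It also fell 3.54-fold in hac1∆ against WT (−1.82 ± 0.13, adjusted p = 4.69e-07) and was 5.22-fold higher in hac1∆(hsf1) than in WT(hsf1). Between hac1∆(hsf1) and WT it was not called (0.08, adjusted p = 0.634), with a 95% interval of the difference from −0.21 to 0.37. YEF3 changed by −0.86 ± 0.06 in hac1∆(hsf1) against hac1∆, 0.93 ± 0.06 in WT(hsf1) against WT and 0.25 ± 0.06 in hac1∆ against WT. Its change in hac1∆(hsf1) against WT was −0.61 ± 0.06. The interaction of HEF3, 4.21 ± 0.19 (adjusted p = 1.12e-09), was the 8th highest of 5449 genes, and that of YEF3 was −1.79 ± 0.09. Leaving out any array kept the interaction of HEF3 between 4.10 and 4.40.

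The paralogs were also compared on each array as HEF3 minus YEF3 in log2 signal. Since probe sets differ in brightness, only the change of this difference between strains is read, not its size. It was −0.19 ± 0.18 (SD, n = 3) in hac1∆(hsf1), −2.95 ± 0.10 in hac1∆, −4.11 ± 0.39 in WT(hsf1) and −0.88 ± 0.13 in WT. The 4 strains did not overlap, and an exact permutation test of the F statistic over the 369600 ways to assign the arrays gave p = 6.49e-05, the smallest it can give. Between pairs of strains the difference shifted by 2.76 in hac1∆(hsf1) against hac1∆, by −3.23 in WT(hsf1) against WT and by 0.69 in hac1∆(hsf1) against WT. With 3 arrays against 3, each two-sided exact permutation test gave p = 0.1, the smallest this design allows.

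Because HEF3 is known as a zinc-regulated gene, 11 genes of the Zap1 zinc regulon were followed beside it. All 11 rose in hac1∆(hsf1) against hac1∆ (median 0.56) and fell in hac1∆ against WT (median −0.76), and HEF3 had the same signs. Among all genes 26.5% rose in the first comparison and 22.3% fell in the second. Both comparisons use the hac1∆ arrays, so they are not independent of each other. Within hac1∆ each of the 11 zinc genes, ZAP1, ZRT1, ADH4 and ZPS1 among them, read lowest on replicate 1. Without that array 10 rose in the first of these comparisons and 11 fell in the second. ZPS1, a zinc-regulated cell surface protein, had the widest changes, 1.60 ± 0.29 in hac1∆(hsf1) against hac1∆ and −2.18 ± 0.29 in hac1∆ against WT. It read 8.46, 9.58 and 10.17 in hac1∆, so 1 array of that strain was far lower than the others, and its change was −1.71 without hac1∆ replicate 1. HEF3 did not spread that way in hac1∆. In WT(hsf1) against WT, where HEF3 fell, 3 of the 11 zinc genes rose, 3 fell and 5 were not called (median −0.04). Those shares, 27.3% each, were near the 32.3% of all genes that rose and the 33.8% that fell. ZAP1, the activator itself, stood at −0.06 ± 0.17 (limma adjusted p = 0.768) and ZRT1, the high-affinity zinc importer, at 0.03 ± 0.15 (adjusted p = 0.866). The 3 that rose were ZRC1, ZRT3 and FET4, and the largest fall was in IZH2 (−0.53 ± 0.06). In IZH1, IZH2, DPP1 and ADH4 every WT(hsf1) array lay below every WT array. In ZRC1, ZRT3, FET4 and ZPS1 every WT(hsf1) array lay above. The shares of all genes without overlap were not counted. Where hac1∆(hsf1) was set against WT(hsf1), HEF3 was higher by 2.38 ± 0.13, whereas 6 of the zinc genes fell, 2 rose and 3 were not called (median −0.33). There 35.8% of all genes fell and 41.7% rose. HEF3 was not called in hac1∆(hsf1) against WT (0.08 ± 0.13), and there 4 zinc genes were lower and none higher (median −0.18). In that comparison 28.1% of all genes were lower and 29.0% higher. ZAP1, ZRT1, ADH4, ZRT3, FET4, IZH1 and DPP1, and ZPS1 in WT(hsf1), were picked out after their values were seen. A role of zinc in any of these changes was not tested.

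**Figure D5:**
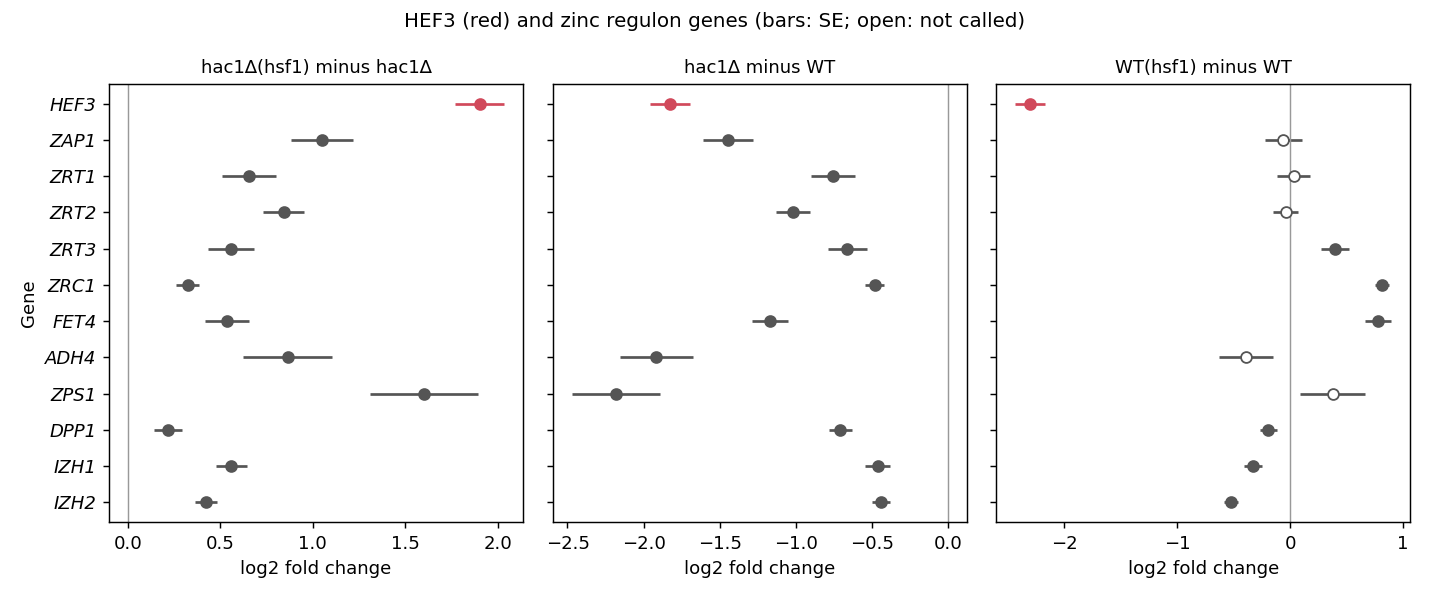
Points are log2 fold changes with bars of 1 SE for HEF3 (red) and 11 genes of the zinc regulon in 3 comparisons, and open points were not called. The zinc genes lie on the same side of 0 as HEF3 in hac1∆(hsf1) minus hac1∆ and in hac1∆ minus WT, but spread on both sides in WT(hsf1) minus WT, where HEF3 stands at −2.30.

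TEF4 and CAM1 form another contrasting pair. Both encode the gamma subunit of eEF1B, the exchange factor that recharges eEF1A with GTP. TEF4 read 8.53, 8.53 and 8.42 in hac1∆(hsf1), 9.32, 9.24 and 9.27 in hac1∆, 10.17, 10.13 and 10.15 in WT(hsf1), and 8.96, 8.83 and 8.94 in WT. The strains did not overlap, and TEF4 had the largest rise of the 41 genes in WT(hsf1) against WT, 1.24 ± 0.05 or 2.36-fold (limma adjusted p = 6.27e-10). It changed by −0.78 ± 0.05 in hac1∆(hsf1) against hac1∆ and by −1.65 ± 0.05 in hac1∆(hsf1) against WT(hsf1). CAM1 read 10.03, 10.05 and 9.94 in hac1∆(hsf1), 10.02, 10.11 and 10.03 in hac1∆, 9.62, 9.63 and 9.69 in WT(hsf1), and 9.86, 9.93 and 9.83 in WT. Its WT(hsf1) arrays were the lowest. CAM1 fell by 0.23 in WT(hsf1) against WT (SE 0.05, adjusted p = 0.00106) and was 0.36 ± 0.05 higher in hac1∆(hsf1) than in WT(hsf1), while hac1∆(hsf1) against hac1∆ was not called (−0.05 ± 0.05).

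The catalytic alpha subunit of eEF1B, EFB1, changed by −0.21 ± 0.05 in hac1∆(hsf1) against hac1∆ and 0.29 ± 0.05 in WT(hsf1) against WT. EFT2, for the translocase eEF2, changed by −0.37 ± 0.06 and 0.64 ± 0.06 in the same comparisons. By its name (ending _s_at) its probe set matches more than 1 transcript, and EFT1 is near-identical to EFT2, so the value is uncertain as to the gene, and EFT1, TEF1 and TIF1 were not analysed here on their own. Taking the 6 elongation factors as a class, 4 fell and HEF3 rose in hac1∆(hsf1) against hac1∆, and 4 rose and 2 fell in WT(hsf1) against WT. Against WT, hac1∆ had 4 of them higher and HEF3 lower.

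Of the release factors SUP45 followed the common order, and in SUP35 the hac1∆(hsf1) and WT means lay together below the other strains. SUP45, the factor eRF1 that reads the stop codon, read 8.36, 8.15 and 8.07 in hac1∆(hsf1), 8.82, 8.77 and 8.78 in hac1∆, 9.29, 9.47 and 9.35 in WT(hsf1), and 8.69, 8.58 and 8.29 in WT. The hac1∆(hsf1) and WT arrays overlapped and the others did not. SUP45 changed by −0.59 ± 0.10 in hac1∆(hsf1) against hac1∆ (limma adjusted p = 0.000192) and by 0.85 ± 0.10 in WT(hsf1) against WT (adjusted p = 5.16e-06). SUP35, the GTPase eRF3 that works with it, read 8.12, 8.38 and 8.23 in hac1∆(hsf1), 8.54, 8.56 and 8.60 in hac1∆, 8.84, 8.90 and 8.74 in WT(hsf1), and 8.34, 8.11 and 8.23 in WT. Its changes were smaller, −0.32 ± 0.07 in hac1∆(hsf1) against hac1∆ and 0.60 ± 0.07 in WT(hsf1) against WT. SUP35 rose by 0.34 ± 0.07 in hac1∆ against WT. SUP45 rose by 0.27 ± 0.10 there, a call that ended without any replicate of hac1∆, at 0.25 to 0.28, or without WT replicate 3, at 0.16, which left 1 of the 2 factors called. SUP35 was not called in hac1∆(hsf1) against WT (0.02 ± 0.07). SUP45 changed by −0.32 ± 0.10 there, with the call lost without hac1∆(hsf1) replicate 3 or WT replicate 1, at −0.26 and −0.24.

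The 18 tRNA synthetases moved together in both comparisons of (hsf1). All 18 fell in hac1∆(hsf1) against hac1∆ (median −0.60, from −1.22 to −0.15) and all 18 rose in WT(hsf1) against WT (median 0.73, from 0.43 to 1.13). Of the 18, 14 rose and none fell in hac1∆ against WT (median 0.38), and in hac1∆(hsf1) against WT(hsf1) all 18 fell (median −0.97). Against WT, hac1∆(hsf1) had 11 lower and 7 not called (median −0.20). The interaction was negative in all 18, with a median of −1.28, against −1.02 in initiation factors. The difference between classes was not tested.

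SES1, the seryl-tRNA synthetase, had the widest response. It read 7.65, 7.72 and 7.65 in hac1∆(hsf1), 8.92, 8.88 and 8.89 in hac1∆, 9.26, 9.39 and 9.21 in WT(hsf1), and 8.35, 8.13 and 7.98 in WT. No strains overlapped. SES1 fell 2.33-fold in hac1∆(hsf1) against hac1∆ (−1.22 ± 0.08, limma adjusted p = 1.43e-07) and rose 2.19-fold in WT(hsf1) against WT (1.13 ± 0.08, adjusted p = 4.88e-08). The fall was the 12th largest of all 5449 genes in its comparison. It also rose by 0.74 ± 0.08 in hac1∆ against WT, the largest rise of the 41 genes there.

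DED81, for asparagine, came next. Its signal was 7.91, 8.06 and 7.90 in hac1∆(hsf1), 9.05, 9.04 and 9.08 in hac1∆, 9.31, 9.40 and 9.33 in WT(hsf1), and 8.44, 8.26 and 8.35 in WT, again with no overlap. It changed by −1.10 ± 0.06 in hac1∆(hsf1) against hac1∆ (limma adjusted p = 4.34e-08), and it averaged 9.35 ± 0.05 in WT(hsf1) against 8.35 ± 0.09 in WT (SD, n = 3 each, limma adjusted p = 9.04e-09). FRS1 and FRS2 encode the beta and alpha subunits of the same enzyme, for phenylalanine. FRS1 changed by −0.79 ± 0.07 in hac1∆(hsf1) against hac1∆ and 0.99 ± 0.07 in WT(hsf1) against WT, and FRS2 by −0.45 ± 0.09 and 0.56 ± 0.09. FRS1 rose by 0.54 ± 0.07 in hac1∆ against WT and FRS2 was not called there (0.12 ± 0.09), though FRS2 was called without WT replicate 1, at 0.22. CDC60, for leucine, had an interaction of −1.64 ± 0.10, GRS1, for glycine, of −1.49 ± 0.07 and TYS1, for tyrosine, of −1.47 ± 0.08. WRS1, for tryptophan, changed by −0.60 ± 0.05 in hac1∆(hsf1) against hac1∆ and by 0.90 ± 0.05 in WT(hsf1) against WT.

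DPS1, the aspartyl-tRNA synthetase, departed from the order in a single respect. It read 8.87, 9.01 and 8.99 in hac1∆(hsf1), 9.72, 9.70 and 9.70 in hac1∆, 9.54, 9.55 and 9.46 in WT(hsf1), and 9.13, 9.01 and 8.83 in WT. Its highest strain was therefore hac1∆, where the other 17 synthetases were highest in WT(hsf1). It changed by −0.75 ± 0.07 in hac1∆(hsf1) against hac1∆ and by 0.53 ± 0.07 in WT(hsf1) against WT. THS1, for threonine, was not called in hac1∆ against WT (0.05 ± 0.08, limma adjusted p = 0.627) but had the largest fall of the class in hac1∆(hsf1) against WT, −0.64 ± 0.08 (adjusted p = 2.75e-05). Besides THS1 and FRS2, KRS1 for lysine (0.21 ± 0.09) and MES1 for methionine (0.14 ± 0.07) were not called in hac1∆ against WT.

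The smallest responses were in GUS1, for glutamate, and ALA1, for alanine. GUS1 changed by −0.29 ± 0.06 in hac1∆(hsf1) against hac1∆ and 0.43 ± 0.06 in WT(hsf1) against WT. ALA1 rose by 0.55 ± 0.06 in WT(hsf1) against WT. Its fall in hac1∆(hsf1) against hac1∆, −0.15 ± 0.06 (limma adjusted p = 0.0424), lost its call without replicate 1 of hac1∆(hsf1), 1 or 3 of hac1∆, 1 of WT(hsf1) or 1 of WT, at −0.17 to −0.10. The others, GLN4 for glutamine, ILS1 for isoleucine, HTS1 for histidine and VAS1 for valine, had interactions of −1.32 (HTS1) to −1.06 (GLN4).

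Other genes of cytosolic translation were counted from lists. For comparison, 30.7% of all genes fell in hac1∆(hsf1) against hac1∆ and 32.3% rose in WT(hsf1) against WT. Of 13 further initiation factors and regulators, 8 fell in hac1∆(hsf1) against hac1∆ and 11 rose in WT(hsf1) against WT. TIF3, the helicase cofactor eIF4B, rose by 0.79 ± 0.05 in WT(hsf1). Of 8 further elongation, recycling and rescue factors, 6 fell in hac1∆(hsf1) against hac1∆ and 6 rose in WT(hsf1) against WT. The number that fell was 3 without hac1∆ replicate 1 or 2. STM1, a ribosome-binding protein, had the widest changes of that list, −1.18 ± 0.05 in hac1∆(hsf1) against hac1∆ and 1.36 ± 0.05 in WT(hsf1) against WT. HYP2, the factor eIF5A, was the member that fell in WT(hsf1) (−0.15 ± 0.06), and its call ended without any array of WT or replicate 1 or 2 of WT(hsf1), at −0.16 to −0.12. Of the other cytosolic synthetases and their cofactor, 3 genes were analysed, and all 3 fell in hac1∆(hsf1) against hac1∆ and rose in WT(hsf1) against WT. Among them YHR020W, for proline, changed by −0.67 ± 0.06 and 0.96 ± 0.06.

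Cytosolic ribosomal protein genes, taken by symbol (RPL, RPS or RPP followed by a number), moved in the same directions by wider margins. The symbols were not checked one by one, so the set may hold a gene of another kind. Of 128, 126 fell in hac1∆(hsf1) against hac1∆ (median −0.83) and 126 rose in WT(hsf1) against WT (median 1.19), set beside medians of −0.43 and 0.69 for the 41 genes. In hac1∆ against WT the 2 sets were close, with medians of 0.28 for ribosomal proteins (89 rose and 1 fell) and 0.30 for the 41 genes. Without WT replicate 2 the ribosomal protein counts there were 73 and 3, with a median of 0.22. Between hac1∆(hsf1) and WT 122 of 128 ribosomal protein genes were lower in hac1∆(hsf1) (median −0.52). Many ribosomal protein genes come in near-identical pairs whose probe sets may share signal, so these counts are uncertain for such pairs. Growth rate was not measured in these cultures, and whether cells of a strain held less of these mRNAs or more of all other mRNA cannot be told apart from relative array signals.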

How the data were processed

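RNA of 12 yeast cultures was hybridised to Affymetrix arrays, with 3 arrays per strain. Each probe set has a deposited log2 signal for each array, and per the submitters' processing notes the authors used PLIER. No version or normalization is named in the sources used here, nor a logarithm base, and log2 was read from the range of the values (4.84 to 12.75) and from array medians of 6.00 to 6.07. Changes of dim genes are compressed by the floor at the lower end. Precision is limited by having 3 arrays a strain.

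Of 10928 probe sets, 5498 were matched to S. cerevisiae through the platform annotation and RefSeq's gene table, and the highest-mean probe set stood for each of the 47 genes with several, which gave 5449 genes. The values were not normalized further. Strain means were fitted over the 12 arrays together with limma 3.58.1 in R 4.3.3 (8 residual degrees of freedom), with 6 comparisons, empirical Bayes moderation and Benjamini-Hochberg adjustment over all genes within each comparison. The SE thus pools the spread of all 4 strains. Figures were drawn with matplotlib 3.10.9. The fit was tested on simulated data with known changes. The labels call the replicates biological.

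All 41 members could be named. From each other list the called genes with the largest increase and decrease were named, and HAC1, HSF1 and URA3 served as checks. Members, lists and tests were chosen with earlier results of these data known. Alternatives were quantile normalization, median-centring, an intensity trend, array weights, a background filter, the mean over probe sets, the compared strains alone, the replicate number as a block and leaving out each array. No sequences, promoters or genome coordinates were used here.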

Additional observations from a re-analysis of the deposited data

Results flagged for a closer look

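The difference between an (hsf1) strain and its partner was unlike without and with HAC1, by limma's interaction test. Whether both (hsf1) strains carry the same change is not given. The interaction was called negative in 37 of the 41 genes and positive in 2. The 16 given here are those that the rule for named genes picks for this test. Each value is the log2 fold change of hac1∆(hsf1) over hac1∆ minus that of WT(hsf1) over WT. Among initiation factors it was −1.07 for TIF11, −1.70 for RPG1, −2.07 for NIP1 and −1.61 for PRT1. Among elongation factors it was −1.79 for YEF3, −2.02 for TEF4, −0.50 for EFB1 and −1.01 for EFT2. HEF3 at 4.21 and CAM1 at 0.18 had the opposite sign, and CAM1 lost its call without WT replicate 2, at 0.15, as it did without 6 other arrays, at 0.16 to 0.17. The release factors stood at −0.92 for SUP35 and −1.44 for SUP45. Among synthetases it was −1.64 for CDC60, −2.09 for DED81, −1.78 for FRS1 and −2.35 for SES1. The other 15 calls held in all the alternatives run.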

How the results depend on the processing

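The 6 comparisons of 41 genes gave 246 values, and 20 alternatives were run. Of 4879 recomputed values, 4784 kept their direction and side of the threshold, 76 lost a call, 19 gained a call and 0 changed sign with a call. The changes fell in 25 of the 246. The number of genes higher in hac1∆(hsf1) than in WT was 4, and 2 in a fit of those strains alone. The number with a positive interaction was 2, and 1 with median-centring. Leaving out each array in turn gave 27 to 32 higher in hac1∆ against WT and 38 to 39 in WT(hsf1) against WT. It gave 33 to 35 lower in hac1∆(hsf1) against hac1∆, 2 to 4 higher and 18 to 23 lower in hac1∆(hsf1) against WT, and 1 to 2 positive and 37 to 38 negative interactions. HSF1 in WT(hsf1) against WT, not called at −0.08, was 0.37 with array weights and 0.43 without WT replicate 2, and ranged from −0.34 to 0.43 when arrays were left out in turn. Array weights gave that array the lowest weight of the 12, 0.244. The cause of these changes was not tested. Scaling moved the median of all genes by less than 0.1 log2 units. With the replicate number as a block, 31 genes rose in hac1∆ against WT and 33 fell in hac1∆(hsf1) against hac1∆. Among the 246 values 2 calls were lost. Arrays of the same number did not clearly deviate together. Their r was −0.246 to 0.502 over 18 pairs of arrays (median 0.0937). Over 36 pairs of different number it was −0.461 to 0.379 (median −0.00763). Of 12 arrays, 5 were closest to their own number, and the numbers were not taken to pair the samples.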

Other observations

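Genes of mitochondrial translation, which serve the organelle's own ribosomes, shared only part of the pattern. All 14 mitochondrial synthetase genes rose in WT(hsf1) against WT (median 0.60), as did 32.3% of all genes. In hac1∆(hsf1) against hac1∆ 4 fell, 2 rose and 8 were not called (median −0.03). The share that fell there, 28.6%, was near the 30.7% of all genes, and 14.3% rose against 26.5% of all genes. MSF1, for phenylalanine, rose in both, by 0.43 ± 0.10 in hac1∆(hsf1) against hac1∆ and by 0.86 ± 0.10 in WT(hsf1) against WT. In hac1∆(hsf1) against WT 8 of the 14 rose and 3 fell, and 1 fell without hac1∆(hsf1) replicate 1. Among all genes 29.0% rose and 28.1% fell in that comparison. The mitochondrial elongation factor genes MEF1 and MEF2 went opposite ways. MEF1 rose by 1.10 ± 0.06 in WT(hsf1) against WT, and MEF2, known for ribosome recycling, read 7.25, 7.23 and 7.30 in WT(hsf1) against 7.97, 7.92 and 8.20 in WT, a change of −0.77 ± 0.09 (limma adjusted p = 4.12e-06).

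The 4 general amino acid control genes belong to the pathway that responds to uncharged tRNA. Their median change in hac1∆(hsf1) against hac1∆ was −0.30, beside −0.43 for the 41 genes. In WT(hsf1) against WT it was 0.28, beside 0.69. GCN4, the activator of amino acid synthesis genes, changed by −0.34 ± 0.06 in hac1∆(hsf1) against hac1∆ and by 0.29 ± 0.06 in WT(hsf1) against WT. GCN20, which works upstream of the sensor kinase, changed by −0.42 ± 0.07 and 0.26 ± 0.07 in the same comparisons. In hac1∆ against WT it rose by 0.44 ± 0.07, beside a median of 0.30 for the 41 genes. GCN2, the kinase itself, was not called in any of the 6 comparisons. GCN2, and the values of GCN4 and of GCN20 in WT(hsf1), were picked out after they were seen. The log2 signal of GCN2 averaged 7.05 ± 0.14 in hac1∆(hsf1), 7.14 ± 0.03 in hac1∆, 7.11 ± 0.04 in WT(hsf1) and 7.17 ± 0.03 in WT (SD, n = 3 each).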
